A study of Rattus norvegicus with 2 samples.

Results

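The genes described here are 32 rat genes of the G1/S transition and of DNA replication, taken from a list of symbols. That list was chosen with earlier results of these data known. A probe was assigned to a gene when the accession carried by the array was a RefSeq transcript of that gene. By this rule 27 of the 32 genes had a probe, all 27 were well above background on both arrays, and they are among 9026 named genes measured in all. No probe was matched to E2f2, E2f8, Mcm5, Chaf1a or Uhrf1, and these 5 genes are not analysed here.

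RNA came from RMT-1 cells, a line from a rat mammary tumour that the labels give as clone E4. One array held RNA of cells given a negative control siRNA and the other RNA of cells transfected with an siRNA against Pla2g4c, a cytosolic phospholipase A2. Both groups are the same clone, for which RPMI-1640 with fetal bovine serum is given as the routine medium, and siRNA dose and time after transfection are not stated in the labels used here. There was 1 array per group, so no difference below has a replicate check or a test, and the 2 arrays describe 2 RNA samples rather than the conditions.

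Cells commit to S phase when E2F transcription factors are freed from the retinoblastoma protein, and cyclin E with Cdk2 strengthens that step. Origins of replication are licensed in G1, when the origin recognition complex with Cdc6 and Cdt1 loads the ring of Mcm2 to Mcm7 onto DNA. In S phase Cdc45 and the GINS complex turn that ring into an active helicase, Mcm10 helps to start it, and polymerases, the sliding clamp and its loader copy both strands. Many of these genes carry E2F binding sites in their promoters and are transcribed as cells enter S phase.

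Because E2F is the shared regulator of this group, the listed genes were searched for its letters near their start sites. Windows from 250 bases before to 50 bases after the annotated start, from RefSeq on build GRCr8, were at hand for 25 of the 32 genes. The words TTCCCGC and TTGGCGC, on either strand, were searched as E2F words. They lay in the windows of 15 of the 25 genes (60.0%), against 7.03% of all 27457 genes of that table and 12.8% of the 7486 measured genes in it. The windows of listed genes had a median G+C content of 60.0% and those of measured genes 60.7%. The CCAAT box word CCAAT was held by 16 of the 25 genes (39.5% of measured genes), the GC box word GGGCGG by 17 (63.0%), and the CHR word TTTGAA of mitotic promoters by 2 (12.0%). An E2F word overlapped a CCAAT word in Mcm7 and a GC box word in Slbp. A match is a description of letters and not evidence of binding.

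Shown here are the 100 bases before the start, on the strand of the gene, for the 6 measured genes with an E2F word wholly inside that stretch, since these genes hold such a word and yet had both the higher and the lower differences given further on. Capitals mark the E2F words, and in Gins1 a word on each strand overlaps into 1 palindrome.
Gins1, chr3:160184820-160184919, plus strand: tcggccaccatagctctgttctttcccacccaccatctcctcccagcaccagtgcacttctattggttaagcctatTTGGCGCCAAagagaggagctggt
Mcm6, chr13:42404353-42404452, minus strand: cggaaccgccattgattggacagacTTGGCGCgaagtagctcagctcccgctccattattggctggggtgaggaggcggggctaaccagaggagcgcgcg
Mcm7, chr12:22163179-22163278, minus strand: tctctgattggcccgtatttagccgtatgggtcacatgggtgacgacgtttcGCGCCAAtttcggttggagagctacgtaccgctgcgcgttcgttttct
Pola1, chrX:62342356-62342455, minus strand: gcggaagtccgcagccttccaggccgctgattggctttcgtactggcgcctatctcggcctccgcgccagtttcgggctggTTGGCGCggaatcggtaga
Rfc4, chr11:91254173-91254272, plus strand: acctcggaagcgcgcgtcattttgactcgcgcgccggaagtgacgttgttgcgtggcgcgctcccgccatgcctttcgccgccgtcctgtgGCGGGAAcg
Tyms, chr9:120776084-120776183, minus strand: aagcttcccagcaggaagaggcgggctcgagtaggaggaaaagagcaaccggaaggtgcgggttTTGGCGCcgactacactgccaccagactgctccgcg

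The level of a gene is given below as its signal in percent of the array's own 75th percentile over gene spots, the scale on which the arrays were set side by side. Differences are log2 values, Pla2g4c siRNA minus control, and the ± beside them is the error that the scanner software assigns to both signals. That error covers technical error within the arrays only. It includes a fixed share of the signal and is therefore near 0.20 for bright probes, whereas the spots of 1 probe had a median SD of 0.04 on either array. Levels are compared between arrays for 1 gene at a time. Sums over a list of markers, given at the end, are likewise compared between arrays only.

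Differences of the replication genes were small. The 27 values lay between -0.36 (Tk1) and 0.54 (Cdc6), with a median of 0.15, and none reached 2-fold, while 2.91% of all genes were higher and 3.05% lower by that much. Above 0 were 18 of 27 genes, beside 49.0% of all 9026 genes, whose median was -0.01. The interquartile range of the listed genes was 0.36 on the log2 scale and that of all genes 0.52. At least 25% higher (0.32 on the log2 scale) were 6 genes, Cdc6, Fen1, Mcm10, Cdt1, Gins2 and Cdc45, or 22.2% of the 27, beside 19.6% of all genes. At least 20% lower, the same log2 distance, were Tk1 and Pola1, or 7.41%, beside 21.7% of all genes. The share of higher genes was thus near that of all genes, and fewer listed genes were lower. From the authors' deposited table, there were 13 genes at least 25% higher and 0 at least 20% lower, and with scaling to spike-in RNAs these counts were 24 and 0. The shares of all genes were 29.9% higher and 14.9% lower in the first case, and 71.5% and 4.39% in the second. These scalings move the median of all genes to 0.12 and 0.54, so directions here are relative to the bulk of genes.

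**Figure D1:**
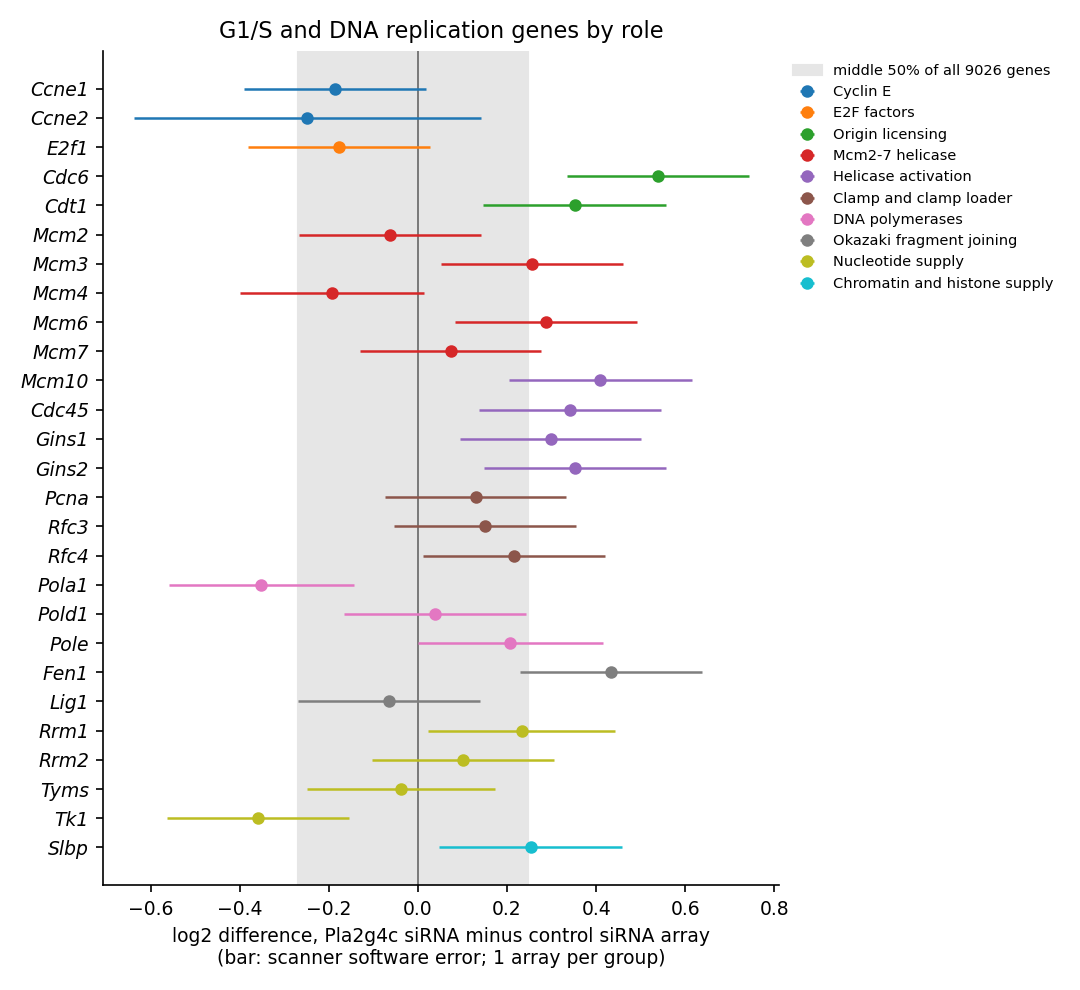
Difference of each of the 27 measured genes (x axis, log2, Pla2g4c siRNA minus control siRNA array), grouped by role, with bars for the scanner software's error and 1 array per group. Both licensing genes and all 4 helicase activation genes lie right of the grey band, the interquartile range of all 9026 genes, while cyclin E and E2f1 lie inside it and left of 0.

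The spots of a probe give a finer view of technical spread than the software's error. Of the 24 listed genes with at least 1 probe spotted more than once, 13 had every spot on the Pla2g4c siRNA array above every spot of the same probe on the control array (54.2%, beside 37.5% of 7448 such genes). In 7 every spot was lower (29.2%, beside 37.5%). In the other 4 (Mcm2, Pold1, Tyms and Slbp) spots overlapped or probes disagreed. A difference larger than the software's error was seen for 12 genes in the higher direction (28.0% of all genes) and for 2 in the lower (29.1% of all genes). The remaining 13 listed genes were within that error.

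The regulators that act first were slightly lower on the Pla2g4c siRNA array. Ccne1, one of the cyclins E, had a level of 143.7% with control siRNA and 126.4% with Pla2g4c siRNA, a difference of -0.19 ± 0.20. Ccne2, the other cyclin E, went with levels of 2.07% and 1.74% (-0.25 ± 0.39), from unscaled signals of 17.6 and 19.2, which are close to background. E2f1, an activating E2F factor, was read by 2 probes that differed by -0.16 and -0.19, with a mean of -0.18 ± 0.20. In all 3 genes every spot was lower on the Pla2g4c siRNA array, while each difference was within the software's error.

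Origin licensing held the highest difference among the listed genes. Cdc6, the ATPase that joins the origin recognition complex to load the helicase, had a level of 56.7% with control siRNA and 82.4% with Pla2g4c siRNA. Its spots were at 56.4% and 57.0% against 81.3% and 83.5%, so the arrays did not overlap, and the difference was 0.54 ± 0.20, or 45.2% higher. Cdt1, its partner in loading, was at 21.7% and 27.7% (0.35 ± 0.21), with spots at 21.6% and 21.8% on the control array and 26.6% and 28.9% on the other. Both licensing factors were therefore higher by more than the software's error.

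The ring subunits Mcm2 to Mcm7, the core of the replicative helicase, did not move as 1 unit. Mcm6 went from 137.7% to 168.1% (0.29 ± 0.20) and Mcm3 from 491.8% to 587.5% (0.26 ± 0.20). The 2 probes of Mcm3, 1 spot each, gave 0.24 and 0.27. These subunits were the higher ones, and Mcm7, at 774.1% and 814.3% (0.07 ± 0.20), was nearly level. Mcm4 had 2 probes at -0.24 and -0.15, with a mean of -0.19 ± 0.21, and all its spots were lower. For Mcm2 the probes disagreed in sign, at -0.15 and 0.02, and the mean was -0.06 ± 0.20. The 5 measured subunits had a median of 0.07, with 3 above 0. None was at least 25% higher (19.6% of all genes) or 20% lower (21.7% of all genes).

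The factors that activate the loaded helicase were higher in all 4 cases. Mcm10, which binds the helicase and starts unwinding, had a level of 18.9% with control siRNA and 25.1% with Pla2g4c siRNA (0.41 ± 0.21). Gins2 was at 31.3% and 39.9% (0.35 ± 0.20), from 1 spot. Cdc45, which completes the helicase together with GINS, was at 312.9% and 396.5% (0.34 ± 0.20). Its 2 spots were at 302.1% and 324.1% on the control array and 384.3% and 409.1% on the other, without overlap. Gins1 was at 241.8% and 297.2% (0.30 ± 0.20). The 4 differences spanned 0.30 to 0.41, a narrow range, and each was larger than the software's error. A second probe of Mcm10 was not well above background with control siRNA and is not part of its value. With that probe included, under no filter on dim probes, Mcm10 was at 0.87, and under normexp it was at 0.27.

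Probes of Fen1, Gins1 and Slbp were spotted many times and show the technical spread within an array. The 10 spots of Fen1 lay between 1180% and 1352% with control siRNA and between 1632% and 1762% with Pla2g4c siRNA. The 10 spots of Gins1 lay between 231.7% and 249.0%, and between 286.8% and 307.4%. For both genes the spots of the arrays were fully apart. The 9 spots of 1 Slbp probe lay between 109.4% and 126.9% and between 117.8% and 136.3%, so that they overlapped. Their mean difference was 0.13, and the second Slbp probe, with 1 spot, gave 0.38.

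**Figure D2:**
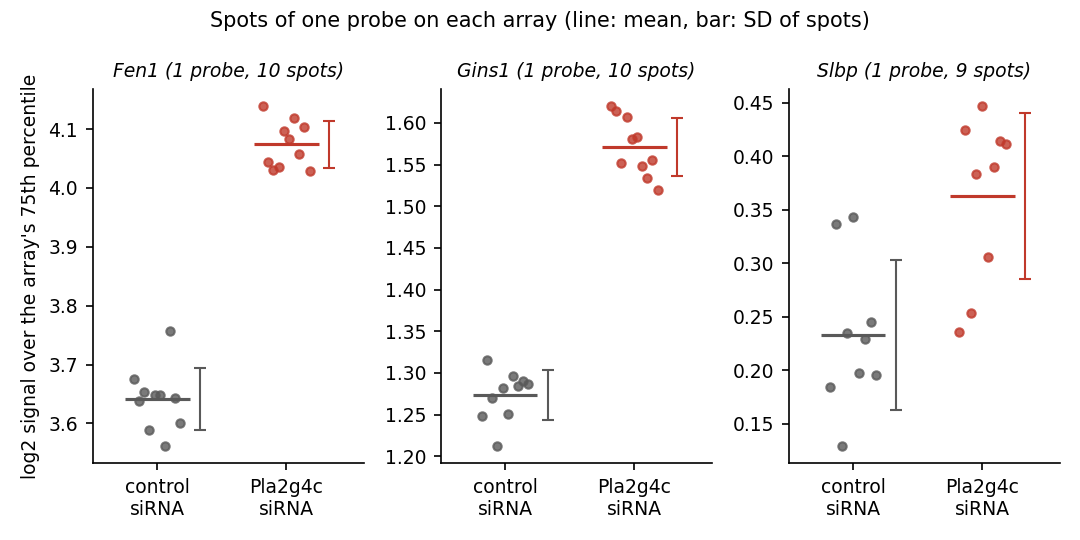
Log2 signal over the array's 75th percentile (y axis) of every kept spot of 1 probe each for Fen1, Gins1 and Slbp on the control siRNA and the Pla2g4c siRNA array, with the mean as a line and the SD of spots as a bar. The arrays are fully apart for Fen1 and Gins1 and overlap for Slbp, and the spots are technical repeats within 1 RNA sample.

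Among enzymes of the fork, the flap endonuclease Fen1, which trims Okazaki fragments, went from a level of 1248% to 1684% (0.43 ± 0.20). Lig1, the ligase that seals those fragments, was at 653.4% and 624.9% (-0.06 ± 0.20). Of this gene pair of Okazaki fragment joining, Fen1 was thus higher by more than the software's error, while Lig1 was within it. The sliding clamp Pcna was at 669.3% and 732.1% (0.13 ± 0.20), and the clamp loader subunits Rfc3 and Rfc4 differed by 0.15 ± 0.20 and 0.22 ± 0.20. The spots of Pcna, Rfc3 and Rfc4 were each fully higher on the Pla2g4c siRNA array, and of these differences that of Rfc4 was larger than the software's error.

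The catalytic subunits of the replicative polymerases went different ways. Pola1, which extends the RNA primer, was at 16.7% with control siRNA and 13.1% with Pla2g4c siRNA (-0.35 ± 0.21), with all spots lower. Pold1, of the lagging-strand polymerase, was at 249.4% and 256.1% (0.04 ± 0.20), and its spots overlapped. Pole, of the leading-strand polymerase, was at 15.2% and 17.6% (0.21 ± 0.21), with all spots higher. Under normexp background correction the difference of Pole was 0.03.

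Nucleotide supply also held both signs. Thymidine kinase, Tk1, which salvages thymidine, had the lowest difference of the listed genes, at 716.4% and 558.5% (-0.36 ± 0.20). Its spots were at 708.2% and 724.7% on the control array and at 557.4% and 559.5% on the other, without overlap. Thymidylate synthase, Tyms, which makes thymidylate anew, was at 11.8% and 11.5% (-0.04 ± 0.21). Of ribonucleotide reductase, the large subunit Rrm1 differed by 0.23 ± 0.21 from 1 spot (0.07 under normexp) and the small subunit Rrm2 by 0.10 ± 0.20 over 2 probes at 0.08 and 0.13. Slbp, which binds the stem-loop of histone mRNA and is needed for histone supply in S phase, had a mean of 0.25 ± 0.21 over its 2 probes, and was at 0.16 under normexp and 0.13 with its brightest probe. Tk1 and Pola1 were thus the only listed genes lower by more than the software's error.

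**Figure D3:**
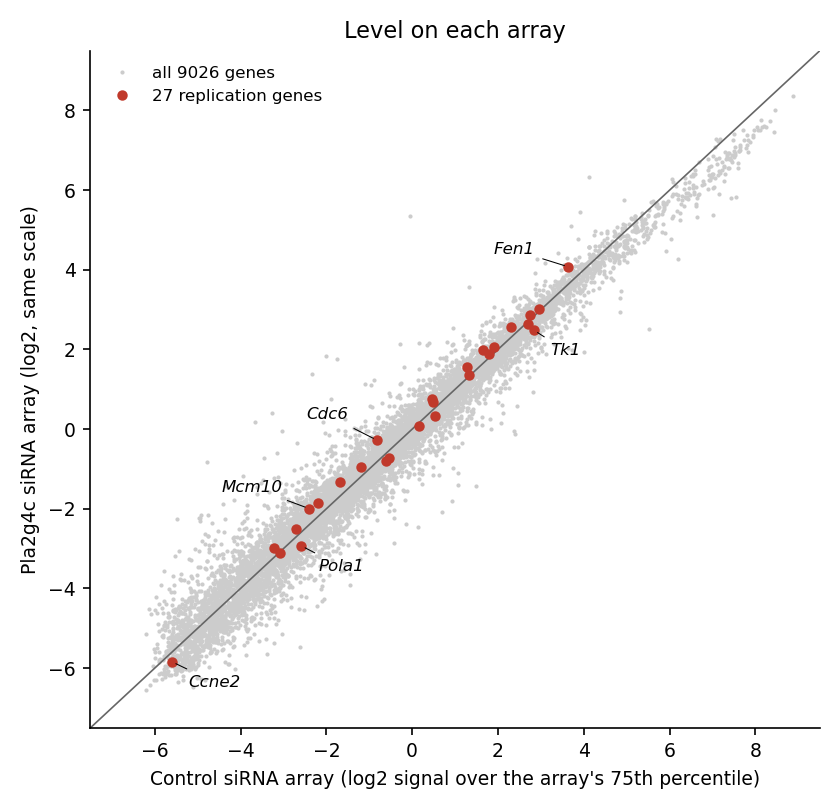
Level of every measured gene on the control siRNA array (x axis) and the Pla2g4c siRNA array (y axis), as log2 signal over each array's 75th percentile, with all 9026 genes in grey and the 27 replication genes in red. The red points follow the diagonal closely, with Cdc6, Mcm10 and Fen1 above it and Tk1 and Pola1 below it, and the brightest grey points lie below the diagonal.

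Genes with and without an E2F word were set side by side. Ccne2, E2f1, Cdc6, Mcm4 and Rrm2 had no window and are in neither group, so the highest listed difference (Cdc6, 0.54) is left out. Only exact words were searched, so a gene without one may still hold an E2F site. Of the 22 measured genes with a promoter window, the 12 with a word had a median difference of 0.22. They ranged from -0.35 (Pola1) to 0.35 (Cdt1), with 10 above 0, beside 49.0% of all genes. The 10 without a word had a median of 0.08, with 6 above 0, and ranged from -0.36 (Tk1) to 0.43 (Fen1). The ranges overlap almost fully. Among the promoters printed above, Gins1 (0.30), Mcm6 (0.29), Rfc4 (0.22), Mcm7 (0.07), Tyms (-0.04) and Pola1 (-0.35) carry one or the other word and lie between the highest and lowest of these values.

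Other genes of replication and of G1/S control were taken from a list of 79 further symbols, of which 62 were measured. Their median difference was 0.11, with 41 above 0 (49.0% of all genes), 15 at least 25% higher (19.6%) and 4 at least 20% lower (21.7%). None reached 2-fold, while 2.91% of all genes were higher and 3.05% lower by that much. Under normexp background correction the median of this list was -0.0028, so that the lean to higher values was absent there. In the authors' deposited table that median was 0.24. Brca1, Rrm2b and Tfdp2 were well above background only with Pla2g4c siRNA and have no value. Cdc25a, the phosphatase that activates Cdk2, was highest, with a level of 132.2% with control siRNA and 218.1% with Pla2g4c siRNA (0.72 ± 0.20). Next came Pola2 (0.70 ± 0.23), the kinase Cdk2 itself (0.66 ± 0.20), the helicase Mcm8 (0.58 ± 0.21) and the histone chaperone Asf1a (0.47 ± 0.24). Pola2 and Asf1a were dim, with unscaled signals of 47.0 and 99.3 and of 38.2 and 67.8, and were at 0.18 and 0.055 under normexp, within their errors. Lowest was Pold4, the small subunit of polymerase delta, at 25.9% and 13.7% (-0.91 ± 0.21). It was followed by Rbl2, the retinoblastoma relative p130 (-0.56 ± 0.20), the dUTPase Dut (-0.36 ± 0.20), Cdca7 (-0.35 ± 0.20) and the primase Prim1 (-0.32 ± 0.20). Thus Cdk2 and Cdc25a were higher by more than the software's error, while the differences of both cyclins E were within it. The cyclin A gene Ccna2, also on this list, was higher too (0.44 ± 0.20).

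Grouping all measured subunits by protein complex, which was done after the values were seen, set complexes with like differences apart from mixed ones. All 5 subunits of replication factor C were higher, between 0.15 and 0.34, with every spot of each higher on the Pla2g4c siRNA array. Rfc3 (0.15 ± 0.20) and Rfc5 (0.15 ± 0.20) were within the software's error. Of all genes 49.0% were above 0, and 37.5% of those with a probe spotted more than once had every spot higher. Like signs within a complex are a description only, since the grouping followed the values. All 4 subunits of GINS (0.02 to 0.35) and all 4 of polymerase epsilon (0.06 to 0.40) were above 0 on this scale. Neither held under every alternative. Under normexp Gins3, with unscaled signals of 23.2 and 30.7, was at -0.21 and Pole2 at 0.043, and with its brightest probe alone Pole3 was at -0.04. The origin recognition complex was nearly level, with 5 subunits between 0.09 and 0.12 and Orc4 at -0.19, each within its error. Under normexp Orc2 (-0.06), Orc5 (-0.11) and Orc6 (-0.05) were below 0 as well. Polymerase alpha-primase held both signs. Its catalytic subunit Pola1 and the primase Prim1 (-0.32 ± 0.20) were lower with all spots apart, and their partners Pola2 (0.70 ± 0.23) and Prim2 (0.34 ± 0.20) were higher with all spots apart. The value of Pola2 is the one that normexp reduced to 0.18. In polymerase delta, Pold3 (0.38 ± 0.20) and Pold2 (0.28 ± 0.20) were higher, Pold1 was level and Pold4 was the lowest of the wider list. In replication protein A, Rpa2 and Rpa3 differed by -0.04 and 0.21.

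**Figure D4:**
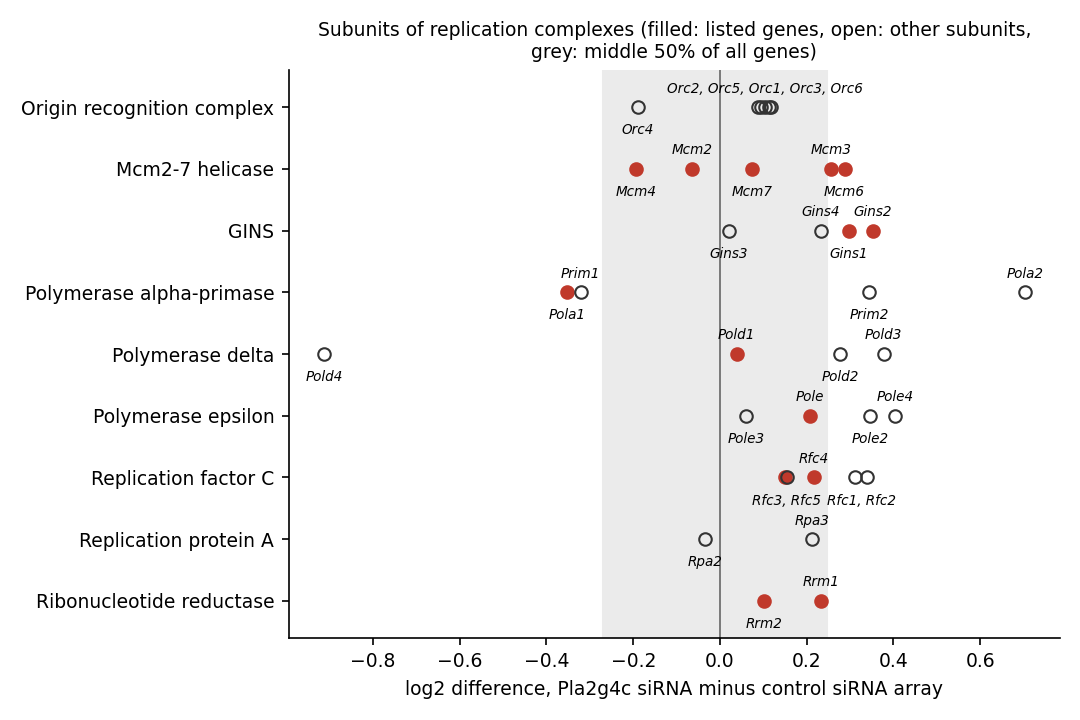
Difference (x axis, log2, Pla2g4c siRNA minus control siRNA array) of each measured subunit of 9 replication complexes (rows), filled for listed genes and open for other subunits, with the interquartile range of all genes in grey. Subunits of replication factor C, GINS and polymerase epsilon lie above 0 on this scale (Gins3 at -0.21 under normexp and Pole3 at -0.04 with its brightest probe), while polymerase alpha-primase and polymerase delta are spread from -0.35 to 0.70 and from -0.91 to 0.38. Of all genes, 49.0% lie above 0.

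Of 7 Cdk inhibitors, which hold cyclin and Cdk complexes inactive, 5 were measured and none was at least 25% higher (19.6% of all genes). Cdkn2c (p18) was at 23.0% and 16.5% (-0.48 ± 0.21) and Cdkn1b (p27), an inhibitor of cyclin E with Cdk2, at 215.1% and 179.7% (-0.26 ± 0.20). Cdkn2d differed by -0.13 ± 0.20, Cdkn1a (p21), a target of p53, by -0.05 ± 0.20, and Cdkn1c by 0.23 ± 0.30. The value of Cdkn1a is a mean of 2 probes that disagree, and its brightest probe alone was at -0.48. Cdkn1c was dim, with unscaled signals of 22.2 and 32.6, and was at -0.18 under normexp background correction and at 0.64 without the filter on dim probes. No direction is given for either gene. Cdkn2a was well above background with control siRNA only, and Cdkn2b in neither sample.

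Mitotic genes, the next wave of the cycle, were set beside the replication genes. Of 40 listed, 34 were measured, with a median of -0.10. Of these 34, 10 were above 0 (49.0% of all genes), 1 was at least 25% higher (19.6% of all genes) and 9 were at least 20% lower (21.7% of all genes). Highest were Incenp (0.75 ± 0.20), Mad2l1 (0.27 ± 0.20) and Espl1 (0.25 ± 0.20), and lowest were Smc2 (-0.89 ± 0.27), Kif20a (-0.72 ± 0.20) and Cenpf (-0.67 ± 0.21). Smc2 was dim, with mean unscaled signals of 74.1 and 37.3 over 2 spots. Its control level of 6.14%, a mean on the log2 scale, lies below the one that the unscaled mean would give, so its control spots were unequal. The medians of replication and mitotic genes thus had opposite signs on this scale. In the authors' deposited table they were 0.28 and 0.03, and with spike-in scaling 0.70 and 0.44. With 1 array per group the gap between the lists has no test, and the part of a different share of cells in S phase in it was not tested. A different RNA content per cell, which bears on the level of both medians alike, was not tested either.

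The differences were set against the processing. The 18 genes above 0 were above 0 under each of the 10 alternatives that measured them. Much of this is set by construction. Spike-in scaling and the deposited table raise all genes by a constant, and median scaling shifts them by less than any of these differences. The choices of probes and spots leave most listed genes unchanged. For most of these genes only normexp, quantile normalization and cyclic loess could change the sign, and they use the same arrays. Cdc6 lay between 0.49 and 1.09 and Fen1 between 0.43 and 0.98. Of the 9 genes below 0, 6 (Ccne1, Ccne2, E2f1, Mcm4, Pola1 and Tk1) were below 0 in each alternative that measured them except spike-in scaling. Under spike-in scaling all 27 were above 0, beside 88.5% of all genes. Mcm2, Tyms and Lig1 changed sign in the authors' deposited table too, and Lig1 also under quantile normalization and cyclic loess. The median of the listed genes minus that of all genes was 0.16, and between 0.14 and 0.31 over the alternatives.

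**Figure D5:**
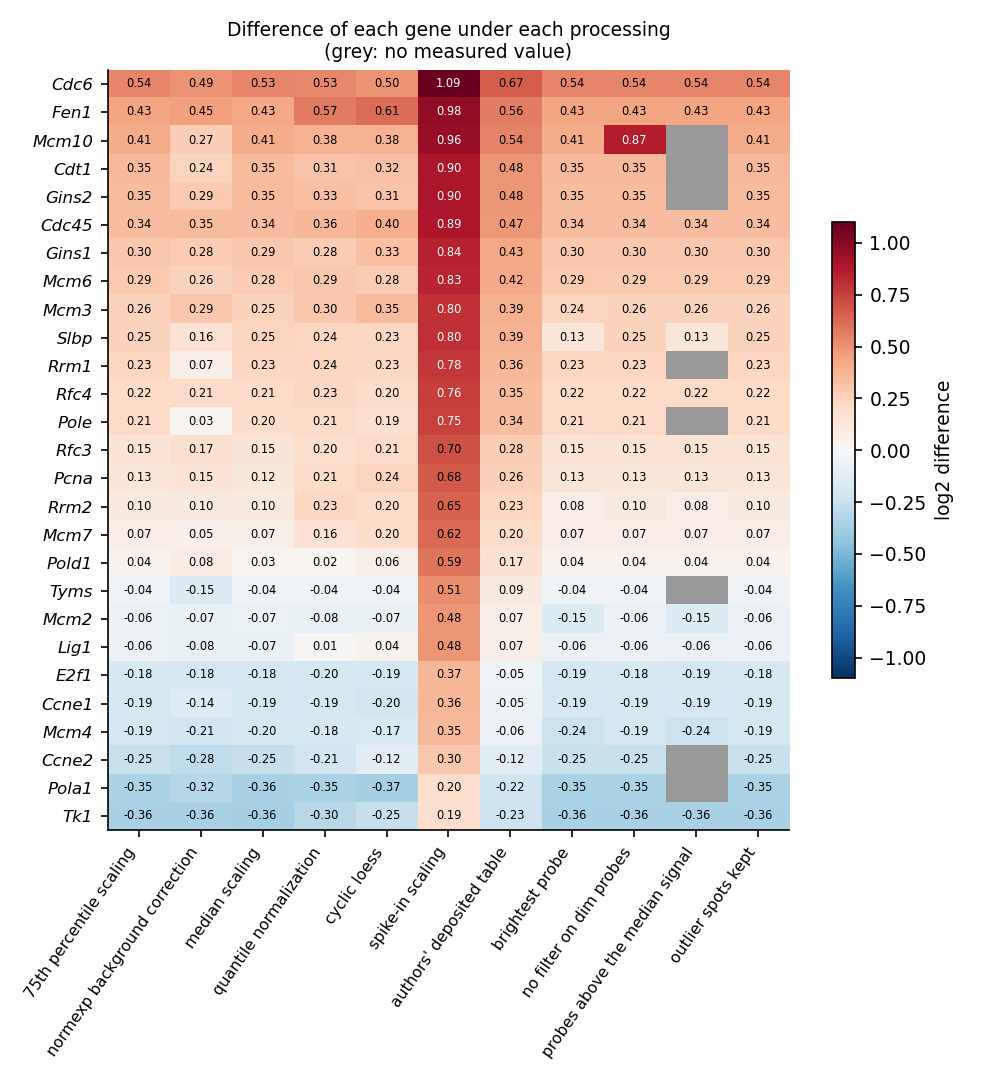
Log2 difference of each of the 27 genes (rows, ordered by difference) under 75th percentile scaling and 10 processing alternatives (columns), with red above 0, blue below 0 and grey where no probe was measured. The rows from Cdc6 to Pold1 are above 0 in every column, much of it by construction. The column of spike-in scaling is above 0 throughout, as are 88.5% of all genes under that scaling.

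As checks on the samples, the 75th percentile of signal came to 851.7 for control and 1105.1 for Pla2g4c siRNA, with 61.9% and 63.1% of spots for genes detected above background. Since no matched probe reads Pla2g4c, the knockdown itself is not analysed here. Of 10 epithelial markers 9 were measured, against 3 of 10 for fibroblasts, 4 of 10 for leukocytes and 1 of 5 with a probe for endothelium. Krt18 among the epithelial markers, and Ptprc and Cd3e among the leukocyte markers, were dimmer than that limit on both arrays. The summed level of the epithelial markers was 793.7 times the 75th percentile on the control array and 358.3 times on the other. Krt14, Krt5, Krt17 and Itgb4 make up almost all of that sum, and they were lower by 0.43 to 1.72 on the log2 scale. Cdh1 (-0.63) and Krt19 (-0.30) were lower too, while Epcam (1.03), Krt8 (0.86) and Cldn4 (0.09) were higher. Krt8 was dim, with unscaled signals of 26.3 and 61.5. The sums were 1.04 and 0.93 for fibroblast markers, 2.13 and 3.90 for leukocyte markers and 0.10 and 0.08 for endothelial markers. Of the measured leukocyte markers Aif1 was higher (1.37), with levels of 61.0% and 157.5%, while Cd14 (-0.25) and Cd68 (-0.385) were lower. Csf1r (0.09 ± 0.41) was dim, with unscaled signals of 13.0 and 18.0. The part of these markers in the differences of the replication genes was not tested.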

How the data were processed

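Total RNA of 1 sample per group was Cy3-labelled for Agilent rat arrays, 1 colour each, per the labels' protocols. Spot intensities on a linear scale came from the authors' run of the Feature Extraction software (version 10.10.1.1 per the file headers and 10.10 in the submitters' processing notes) and were not normalized between arrays. In a deposited table the intensities are the processed signals multiplied by 1.77 (control) or 1.50 (Pla2g4c siRNA), with column medians of 118.5 and 130.2, and no source used here says how the factors were set. The background and outlier flags (0 or 1, other values) were used as deposited.

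Each processed signal was divided by the 75th percentile of its array, taken over 58717 gene spots, and put on the log2 scale. Left out were 722 spots with an outlier flag on 1 or both arrays. Spots of a probe were averaged, and a probe counted as measured where both arrays had every kept spot well above background (16840 of 30367 probes). Measured probes of a gene were averaged. Names came from RefSeq transcripts on GRCr8, matched without versions, and 18006 probes had a symbol. The array design names build rn4, so no probe coordinates are given, and promoter coordinates are those of GRCr8.

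The listed genes had 34 probes and 83 spots, of which 33 probes and 82 spots were used, and 0 were saturated. The precision is limited by the number of arrays. All listed genes are named. Of the wider list the 5 highest and 5 lowest were named, of the mitotic list the 3 highest and 3 lowest, and every measured Cdk inhibitor. Ccna2 of the wider list was added beside the cyclins E. Members and lists were chosen with earlier results of these data known, and the lists of subunits after the values were seen. The alternatives were normexp (offset 50, on median spot and background signals), median scaling, quantile normalization, cyclic loess, 7 spike-in RNAs, the deposited table, the brightest probe, no filter on dim probes, probes above the median signal, and outlier spots kept. Normalization ran in limma 3.58.1 (R 4.3.3) and all else in Python 3.11.15 (pandas 2.3.3, numpy 2.4.6). The steps were tested on simulated data.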

Additional observations from a re-analysis of the deposited data

How the results depend on the processing

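The median of the 27 genes, 0.15, was 0.28 in the authors' deposited table and 0.70 with spike-in scaling, and within 0.1 of the reported value under the other 8 alternatives. At least 25% higher were 6 genes (19.6% of all genes), against 3 under normexp (11.9%), 3 of 19 among probes above the median signal (15.1%), 13 in the deposited table (29.9%) and 24 with spike-in scaling (71.5%). At least 20% lower were 2 genes (21.7%), against 1 under normexp (21.7%), quantile normalization (19.6%), cyclic loess (19.4%) and probes above the median signal (19.4%), and 0 in the deposited table (14.9%) and with spike-in scaling (4.39%). With spike-in scaling Pola1 was 0.20 and Tk1 0.19, and of the other genes Cdca7 was 0.20, Cdkn2c 0.069 and Dut 0.19, each below 0 on the 75th percentile scale. Of 262 values of single listed genes under an alternative, 234 were within the software's error of the reported value. Much of this is set by construction. Median scaling and the deposited table shift all genes by a constant smaller than that error, and the choices of probes and spots leave most listed genes unchanged. The count is therefore no measure of agreement between independent values. Outside the 27, normexp moved the wider list's median to -0.0028, Asf1a to 0.055, Pola2 to 0.18, Pole2 to 0.043 and Cdkn1c to -0.18, the brightest probe put Cdkn1a at -0.48, and no filter on dim probes put Cdkn1c at 0.64. Spike-in scaling and the deposited table, each a constant per array, shift all genes alike by construction. The cause of the other moves was not tested. No paired analysis was possible because there was 1 array per group. Signal over background limits Ccne2, Pola2, Asf1a, Gins3, Smc2 and Cdkn1c, which were dim. For genes and lists outside the 27, the same 10 alternatives were applied after seeing the data.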
